A study of Homo sapiens with 4 samples.

Results

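The genes described are 10 human genes of zinc handling, chosen by symbol with earlier results of these data known. These are the metallothioneins MT1E, MT1F, MT1G, MT1H, MT1M, MT1X and MT2A and the transcription factor gene MTF1. The others are the zinc exporter gene SLC30A1 and the zinc importer gene SLC39A10. All 10 had a probe set with 1 gene symbol among the 18323 genes so measured, and all 10 passed the filter on dim genes, which left 15194 genes for the tests. RNA came from the nasopharyngeal carcinoma cell lines HK1EBV and HK1, on 1 single-colour Affymetrix array for each of 4 groups: HK1EBV with CAPE, HK1EBV with DMSO, HK1 with CAPE and HK1 with DMSO. Caffeic acid phenethyl ester (CAPE), a component of propolis, was given at 110 µM for 24 h, and dimethyl sulfoxide (DMSO), the solvent control, at 0.1% for 24 h. The name HK1EBV was read as HK1 cells carrying Epstein-Barr virus, of which the labels say no more. Each condition of a line is 1 bulk RNA sample, in which fewer cells with a transcript and less of it per cell cannot be told apart.

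Metallothioneins are small cysteine-rich proteins that hold zinc, copper and cadmium in the cytosol and also react with oxidants and electrophiles. When free zinc rises, the zinc-finger factor MTF1 moves to metal response elements in the promoters of metallothionein genes and of SLC30A1 and raises their transcription. SLC30A1 exports zinc across the plasma membrane, and SLC39A10 brings it into the cell. In mouse and zebrafish cells MTF1 is known to lower transcription of the SLC39A10 gene when zinc is plentiful.

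With CAPE, 9 of the 10 genes stood higher in both lines, as did 32.1% of all genes, and SLC39A10 stood lower in both. MT1F and MT1X had the largest positive differences, a little over 2-fold on average, and SLC39A10 was 2.91-fold lower on average, with a dim value in HK1 with CAPE. The other 5 metallothioneins, MTF1 and SLC30A1 differed by 1.18-fold to 1.5-fold on average. With limma and Benjamini-Hochberg adjustment over all genes, 0 of the 10 passed at 0.05 (6 had an unadjusted p under 0.05), against 0.00658% of all genes called and 19.5% at that unadjusted p. When 57 genes whose residual was exactly 0 were left out of the same fit, MT1F, MT1X and SLC39A10 passed. That fit called 8.21% of all genes, 4.07% higher and 4.14% lower.

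The promoter windows of 5 of these genes are shown because they differ in how many metal response element cores they hold. Each is the 250 bases before an annotated start site, from RefSeq on build GRCh38.p14, written from 5′ to 3′ on the strand of the gene. Capitals mark matches to the cores TGCACNC or TGCGCNC on either strand. By symbol, 6 of the 10 genes matched a window, and MT1E, MT1F, MT1G and MT1M had none to search. For SLC39A10 the promoter set held 2 starts, and starts outside that set were not searched.
MT2A, chr16:56608334-56608583, plus strand: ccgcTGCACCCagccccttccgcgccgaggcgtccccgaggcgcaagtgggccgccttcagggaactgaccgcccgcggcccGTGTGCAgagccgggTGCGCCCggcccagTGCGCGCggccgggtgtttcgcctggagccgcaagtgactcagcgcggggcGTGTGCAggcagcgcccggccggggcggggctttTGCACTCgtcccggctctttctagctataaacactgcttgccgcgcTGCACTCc
MT1X, chr16:56682220-56682469, plus strand: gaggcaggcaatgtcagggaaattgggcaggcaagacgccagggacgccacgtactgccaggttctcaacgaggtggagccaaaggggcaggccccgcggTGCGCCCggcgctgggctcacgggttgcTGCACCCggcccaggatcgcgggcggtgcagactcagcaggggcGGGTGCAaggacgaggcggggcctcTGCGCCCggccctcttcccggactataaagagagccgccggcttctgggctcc
MT1H, chr16:56669564-56669813, plus strand: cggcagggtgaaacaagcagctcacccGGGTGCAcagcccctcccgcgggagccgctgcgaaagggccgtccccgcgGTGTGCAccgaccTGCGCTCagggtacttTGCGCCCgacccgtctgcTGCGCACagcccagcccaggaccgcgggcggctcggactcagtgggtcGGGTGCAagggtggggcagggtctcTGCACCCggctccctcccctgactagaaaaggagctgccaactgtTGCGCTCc
SLC30A1, chr1:211579162-211579411, minus strand: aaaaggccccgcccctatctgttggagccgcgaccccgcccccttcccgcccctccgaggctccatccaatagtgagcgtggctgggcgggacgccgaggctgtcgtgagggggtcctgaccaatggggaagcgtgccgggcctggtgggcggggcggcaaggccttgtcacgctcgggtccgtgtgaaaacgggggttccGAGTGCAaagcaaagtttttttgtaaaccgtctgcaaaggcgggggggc
SLC39A10, first of its 2 start sites, chr2:195656708-195656957, plus strand: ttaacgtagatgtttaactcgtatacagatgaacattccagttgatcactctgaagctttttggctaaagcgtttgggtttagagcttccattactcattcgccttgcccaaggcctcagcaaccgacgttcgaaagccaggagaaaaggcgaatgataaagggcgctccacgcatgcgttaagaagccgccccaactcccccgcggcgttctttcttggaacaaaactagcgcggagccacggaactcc

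The MT1H window held 8 of these cores, the MT2A window 7, the MT1X window 4 and the SLC30A1 window 1. No core was found in the MTF1 window or in either SLC39A10 window. Both SLC39A10 windows lie inside the span annotated for that gene, which begins at 195613029. A start at that end was not searched. Bases after a start were not searched either, except where the second SLC39A10 window lies after the first start. Of 35116 windows of the same length in the promoter set, 24.8% held at least 1 core, 0.37% at least 4 and 0.0313% at least 7. In MT1X and MT1H a core spanned positions -53 to -47 from the start on the strand of the gene and another -78 to -72 on the opposite strand, and MT2A had one at -54 to -48. These stretches are alike among the copies and are not independent of each other. A core of the antioxidant response element, searched as TGACNNNGC on both strands, occurred once each in MT2A, MT1X and SLC30A1 and in 10.9% of all windows. It overlapped no metal response core in them. Letters that match a motif describe the sequence and do not show binding in these cells.

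**Figure D1:**
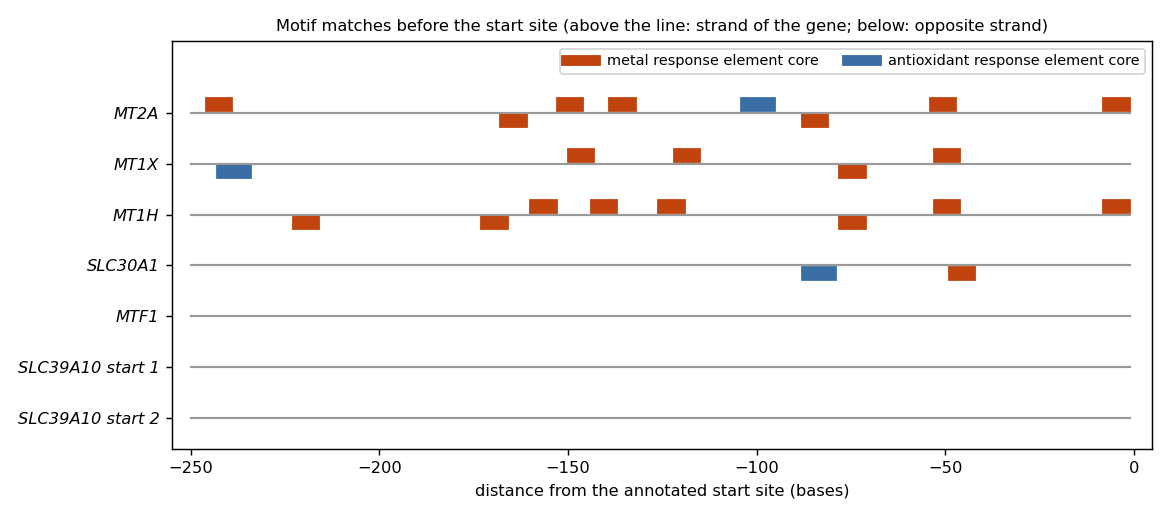
Positions of motif matches in the 250 bases before the start sites of 6 genes, with SLC39A10 shown for 2 starts; the horizontal axis is the distance from the start site in bases. MT1H has 8 metal response cores, MT2A 7, MT1X 4, SLC30A1 1, and MTF1 and SLC39A10 none (0).

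The 7 metallothionein genes lie within 75.6 kb on chromosome 16, from 56608584 to 56684196 on GRCh38.p14. MTF1 lies on chromosome 1 from 37809574 to 37859592, SLC30A1 on the same chromosome from 211571568 to 211579161, and SLC39A10 on chromosome 2 from 195613029 to 195737700. These positions come from RefSeq, since no build is named for the array values. Several metallothionein copies are nearly identical, so each of the values below may hold signal of its neighbours. None (0) of the 10 genes was read from a probe set with more than 1 symbol. The 1 shared probe set of the family carries the symbols NUTF2 and MT1L, and it had 6.98 in HK1EBV with CAPE, against 6.73 with DMSO, and 7.05 in HK1 with CAPE, against 6.78 with DMSO. Values throughout are RMA values taken as log2, where RMA is the background correction, quantile scaling and summary of probes that the submitters used. The array medians lay between 2.23 and 2.27, and levels of different probe sets are not compared. As there was 1 array per group, a difference within 1 line has no replicate check, and the small number of arrays, 4, limits the precision throughout. For the CAPE effect the lines served as the replicates (n = 2), and p-values rested only on these arrays, which the labels do not tie to separate cultures. Each moderated SE and p-value draws on a variance pooled over all genes. In the fit as reported the prior had 3.9 degrees of freedom, against 1 of the gene. In the fit without the 57 genes of zero residual it had 9.89, so p-values of that fit rest more on the pooled variance. The ± values come from the fit as reported and are not a gene's own spread between the lines.

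The lines were checked against markers of cell types. The epithelial keratin genes KRT5 and KRT14 stood between 9.13 and 10.25 on all arrays, EPCAM and CDH1 between 7.61 and 8.39, and KRT8 between 2.26 and 3.05. Of 7 fibroblast markers, DCN and LUM (2) lay under the filter level of 0.997 on every array, and COL1A1, at 3.42 to 3.64, was the 1 that lay above all array medians. Of 6 leukocyte markers measured, PTPRC and CD3E (2) lay under that level on every array, while CD14 read 2.05 to 2.26 and NCAM1 reached 2.58. All 5 endothelial markers lay below the array medians, and PECAM1 was under the filter level throughout. The mean value of the fibroblast list was 1.68 to 1.76 with CAPE, against 1.68 to 1.72 with DMSO, and that of the endothelial list 1.05 to 1.10 with CAPE, against 1.04 to 1.07 with DMSO. The mean of the leukocyte list was 2.53 to 2.64 with CAPE, against 2.36 to 2.54 with DMSO. In that list CD68, a lysosomal protein gene, had 9.03 in HK1EBV with CAPE, against 7.88 with DMSO, and 8.51 in HK1 with CAPE, against 7.28 with DMSO. Its change was 1.14 in HK1EBV and 1.23 in HK1 (limma adjusted p = 0.0672, or 0.000751 without the genes of zero residual), in the same direction as MT1F and MT1X, and its part in their values was not tested.

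MT1F, one of the metal-binding MT1 proteins, had 8.11 in HK1EBV with CAPE, against 6.93 with DMSO, and 8.08 in HK1 with CAPE, against 6.80 with DMSO. Both CAPE arrays stood above both DMSO arrays, and the lines were nearly level within each treatment. The change was 1.18 in HK1EBV and 1.28 in HK1, on average 1.23 ± 0.11 (moderated SE of limma, n = 2 lines), which is 2.35-fold. It ranked at 36 from the top among 15194 genes, and its limma adjusted p was 0.0672, or 0.000644 without the genes of zero residual.

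MT1X, another MT1 isoform, had 8.61 in HK1EBV with CAPE, against 7.54 with DMSO, and 8.20 in HK1 with CAPE, against 7.22 with DMSO. The CAPE arrays were again above both DMSO arrays, and HK1EBV lay above HK1 within each treatment. Its change was 1.07 in HK1EBV and 0.98 in HK1, on average 1.03 ± 0.11 (moderated SE, n = 2), or 2.04-fold, at rank 68 from the top. The limma adjusted p was 0.0672, or 0.00150 without the genes of zero residual. At least 1.5-fold higher in both lines were MT1F and MT1X alone among the 7 metallothioneins, against 1.35% of all genes.

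MT2A, the isoform usually most abundant in human cells, had 11.26 in HK1EBV with CAPE, against 10.99 with DMSO, and 11.11 in HK1 with CAPE, against 10.84 with DMSO. Its CAPE arrays stood above both DMSO arrays by a small margin, and the highest value of any probe set on an array was 11.92, so the probe set was near the top of the scale. The change was 0.27 in each line (0.27 ± 0.11, moderated SE, n = 2, limma adjusted p = 0.271). A second MT2A probe set gave changes of 0.31 in HK1EBV and 0.31 in HK1. Where on the genome either set lies was not looked up.

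MT1E, an MT1 isoform, had 9.68 in HK1EBV with CAPE, against 9.20 with DMSO, and 9.33 in HK1 with CAPE, against 9.19 with DMSO. The difference was larger in HK1EBV, at 0.48, against 0.14 in HK1, and the DMSO arrays were nearly level. MT1G, also of the MT1 group, had 9.24 in HK1EBV with CAPE, against 8.79 with DMSO, and 9.01 in HK1 with CAPE, against 8.66 with DMSO. Its CAPE arrays stood above both DMSO arrays, with changes of 0.45 in HK1EBV and 0.35 in HK1. The limma adjusted p was 0.300 for MT1E and 0.161 for MT1G.

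MT1M had 3.69 in HK1EBV with CAPE, against 3.41 with DMSO, and 3.39 in HK1 with CAPE, against 3.19 with DMSO. It was the 1 metallothionein of the 7 in which the treatments overlapped, since the HK1EBV DMSO array was slightly above the HK1 CAPE array. MT1H had 2.10 in HK1EBV with CAPE, against 1.63 with DMSO, and 1.92 in HK1 with CAPE, against 1.61 with DMSO. All its values lay under the array medians, in the range where signal is hard to separate from background. The average changes were 0.23 ± 0.11 for MT1M and 0.39 ± 0.11 for MT1H (moderated SE, n = 2; limma adjusted p = 0.333 and 0.173).

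As a group the 7 metallothioneins had median changes of 0.46 in HK1EBV and 0.31 in HK1, against -0.0032 in HK1EBV and 0.018 in HK1 over all genes tested. All 7 were higher with CAPE in both lines, as were 32.1% of all genes, and in 6 of 7 both CAPE arrays stood above both DMSO arrays, as in 18.4% of all genes. These copies share sequence and probes may read more than 1 of them, so they do not count as 7 separate observations.

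MTF1, the zinc sensor that drives these genes, had 6.26 in HK1EBV with CAPE, against 5.95 with DMSO, and 5.97 in HK1 with CAPE, against 5.80 with DMSO. The CAPE arrays were above both DMSO arrays, with HK1 under CAPE barely above HK1EBV under DMSO. Its average change of 0.24 ± 0.11 (moderated SE, n = 2) had a limma adjusted p of 0.336. These are levels of its RNA, while MTF1 is known to be controlled mainly through zinc binding and entry into the nucleus, which arrays do not measure.

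SLC30A1, the plasma membrane exporter also called ZNT1, had 5.08 in HK1EBV with CAPE, against 4.11 with DMSO, and 4.91 in HK1 with CAPE, against 4.73 with DMSO. HK1EBV with DMSO was the low array, and the other 3 were close together. The change was thus 0.98 in HK1EBV and 0.19 in HK1, on average 0.58 ± 0.21 (moderated SE, n = 2, limma adjusted p = 0.230).

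SLC39A10, the importer also called ZIP10, had 2.61 in HK1EBV with CAPE, against 3.67 with DMSO, and 1.96 in HK1 with CAPE, against 3.97 with DMSO. Both CAPE arrays stood below both DMSO arrays, as in 17.7% of all genes, and HK1 with CAPE was under its array median of 2.27, in the range where signal is hard to separate from background. The size of the fold in HK1, the average and its rank, and the gap between the lines all rest on that dim value. In HK1EBV, where both arrays read above their medians, it was 2.09-fold lower. With CAPE that was only a little above, at 2.61 against a median of 2.23, so this fold too may be affected by background. The change was -1.07 in HK1EBV and -2.02 in HK1. It was at least 2-fold lower in both lines, as were 31 genes or 0.204% of all genes, and its average of -1.54 ± 0.24 (moderated SE, n = 2) ranked at 6 from the bottom. The limma adjusted p was 0.0843, or 0.00144 without the genes of zero residual.

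**Figure D2:**
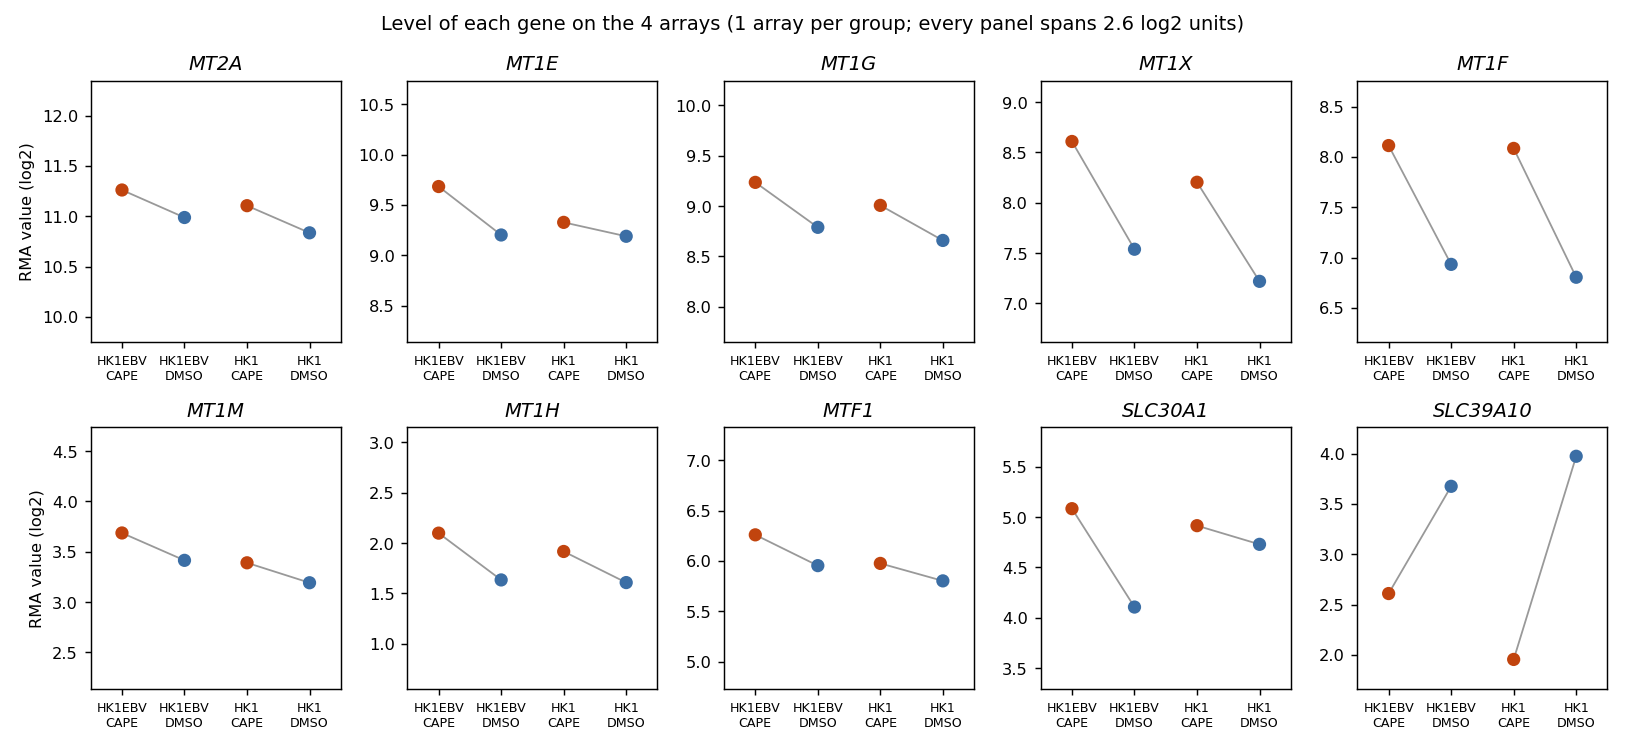
RMA values (log2) of the 10 genes on the 4 arrays, 1 point per array, with CAPE in red and DMSO in blue and a line joining the arrays of 1 cell line. In MT1F and MT1X the CAPE points stand about 1 unit above the DMSO points in each line, and in SLC39A10 they stand below, with 1.96 in HK1 with CAPE against 3.97 with DMSO.

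**Figure D3:**
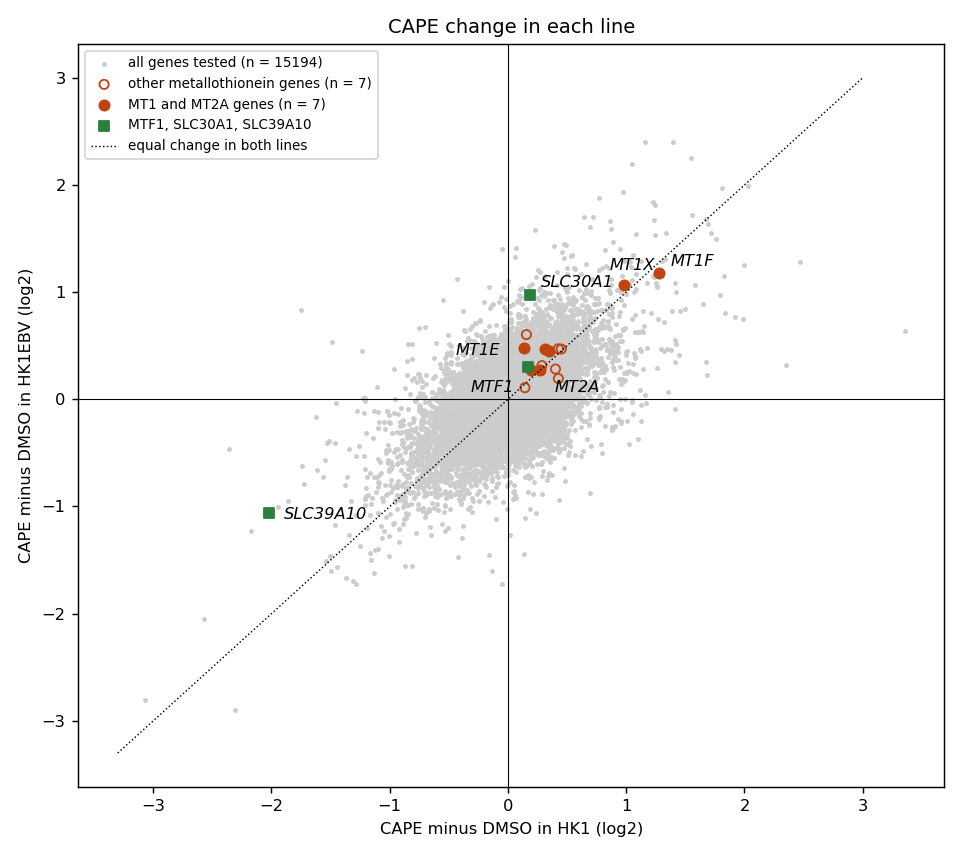
CAPE change in HK1 (horizontal) and in HK1EBV (vertical), in log2, for 15194 genes (grey) with the 10 genes and 7 other metallothionein genes marked. MT1F and MT1X lie near the line of equal change, SLC30A1 lies above it at 0.98 in HK1EBV against 0.19 in HK1, and SLC39A10 is the 1 marked gene in the lower left.

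The next comparison set HK1EBV against HK1. All 7 metallothioneins were slightly higher in HK1EBV with both treatments, as were 33.2% of all genes. The differences ran from 0.03 to 0.41 with CAPE and from 0.01 to 0.32 with DMSO, and MT1X had the largest under each. In MT1M alone of the 7 were both HK1EBV arrays above both HK1 arrays, as in 21.4% of all genes. MT1X differed by 0.36 ± 0.11 on average (moderated SE, n = 2 treatments, limma adjusted p = 0.152) and MT1F by 0.08 ± 0.11 (0.741). MTF1 was higher in HK1EBV by 0.28 with CAPE and 0.15 with DMSO. SLC30A1 was 0.17 higher in HK1EBV with CAPE and differed by -0.62 with DMSO, and SLC39A10 by 0.65 with CAPE and -0.30 with DMSO. At least 1.5-fold apart were 1 of the 10 genes with CAPE, SLC39A10, against 10.1% of all genes, and 1 with DMSO, SLC30A1, against 8.37%. By limma with Benjamini-Hochberg adjustment 0 of the 10 genes passed for the line difference (1, MT1X, had an unadjusted p under 0.05), against 2.9% of all genes called and 23.1% at that unadjusted p.

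The CAPE change was also compared between the lines, without a test, as no residual degree of freedom was left for it. It was larger in HK1EBV for 6 of the 7 metallothioneins, as in 46.9% of all genes, with differences between the lines from -0.10 for MT1F to 0.34 for MT1E. MT2A was among the 6 by 0.0037 only, and with quantile normalization its difference was -0.09, which left 5 of 7. For SLC30A1 and SLC39A10 it was 0.79 and 0.95 higher in HK1EBV, so that SLC30A1 had the larger positive change there and SLC39A10 the smaller negative one. These were the 2 of 10 genes with a difference of at least 1.5-fold, as in 6.3% of all genes, and 0 of 10 reached 2-fold, as in 0.77%.

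Other metallothionein genes, taken from a list of the remaining family members and transcribed pseudogenes, stood the same way. Of 10 listed, 7 had a probe set of their own and all 7 were higher in both lines with CAPE, as were 32.1% of all genes. In 7 of 7 both CAPE arrays stood above both DMSO arrays, as in 18.4% of all genes. These copies share sequence with the 7 above and with each other, so they are not a separate check. Their medians were 0.31 in HK1EBV and 0.40 in HK1. MT1HL1, a copy on chromosome 1, was higher by 0.47 in HK1EBV and 0.45 in HK1, and the pseudogene MT1IP by 0.47 and 0.43. MT4, known from stratified epithelium, was higher by 0.60 in HK1EBV and 0.16 in HK1, and the pseudogene MT1JP by 0.28 and 0.40. The values of MT4, 1.70 to 2.33, and of MT1B, 1.58 to 2.01, lay near or under the array medians. Signal is hard to separate from background there. MT3, known from brain, had the smallest average change of the list, 0.13. By limma 0 of the 7 passed (4 had an unadjusted p under 0.05, against 19.5% of all genes). Without the genes of zero residual 0 passed too, against 8.21% of all genes.

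The other zinc exporters of the SLC30 family and TMEM163 gave no common direction. Of 10 listed, 8 were bright enough to test. Of these, 4 were higher in both lines, against 32.1% of all genes, 1 was lower in both and 3 went opposite ways. Their medians were 0.15 in HK1EBV and -0.04 in HK1. Their average changes ran from -0.11 for SLC30A7 to 0.14 for SLC30A5, both transporters of the secretory pathway. Both went opposite ways in the lines, SLC30A7 by 0.07 in HK1EBV and -0.29 in HK1, and SLC30A5 by 0.46 and -0.17. SLC30A6, the partner of SLC30A5, differed by 0.13 and SLC30A8, known from pancreatic beta cells, by 0.12. These averages came mostly from HK1EBV, at 0.25 and 0.23, against 0.009 and 0.004 in HK1. SLC30A8 read 1.02 to 1.25, close to the filter level. By limma 0 of 8 passed for CAPE (0 at an unadjusted p under 0.05, against 19.5% of all genes). SLC30A4, singled out after its values were seen, was the 1 exporter to pass for the line difference, against 2.9% of all genes. It had 3.34 in HK1EBV with CAPE, against 2.58 in HK1 with CAPE, and 3.30 in HK1EBV with DMSO, against 2.48 in HK1 with DMSO (0.79 ± 0.11, moderated SE, n = 2, limma adjusted p = 0.0461).

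Of the other zinc importers of the SLC39 family, 11 of 13 were tested. With CAPE 7 were higher in both lines, against 32.1% of all genes, 0 lower in both and 3 opposite. SLC39A5 did not differ between the HK1EBV arrays. The medians of the 11 were 0.24 in HK1EBV and 0.21 in HK1, while SLC39A10 stood at -1.07 and -2.02. SLC39A7, which releases zinc from the endoplasmic reticulum and Golgi, had 5.96 in HK1EBV with CAPE, against 5.20 with DMSO, and 5.88 in HK1 with CAPE, against 5.19 with DMSO. Its change of 0.73 on average had a limma adjusted p of 0.0830, or 0.00803 without the genes of zero residual. SLC39A9, found at the Golgi, differed by 0.36, SLC39A14, which also carries iron and manganese, by 0.34, and SLC39A13 by 0.31. By limma 0 of 11 passed for CAPE (4 at an unadjusted p under 0.05, against 19.5% of all genes). Without the genes of zero residual 1 passed, SLC39A7, against 8.21% of all genes. For the line difference SLC39A8 was the 1 that passed, at -0.76 on average (limma adjusted p = 0.0482), against 2.9% of all genes. It was singled out after its values were seen. SLC39A6 differed by -0.76 too (limma adjusted p = 0.0539) and SLC39A14 by -0.59 (0.0719). These 3 passed without the genes of zero residual, where 947 of 15137 genes passed as higher in HK1EBV and 809 as lower. Of the 11, 4 were lower in HK1EBV with both treatments and 2 higher, against 4810 and 5037 of the 15194 genes tested.

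Among genes of copper handling, a metal that metallothioneins also bind, 7 of 8 were tested and 0 passed for CAPE by limma. At an unadjusted p under 0.05 stood 3 of the 7, against 19.5% of all genes. SLC31A2, a copper transporter of endosomes, was higher by 0.42 in HK1EBV and 0.997 in HK1. It was the 1 of the 7 that passed without the genes of zero residual, against 8.21% of all genes. The importer SLC31A1 was higher by 0.79 and 0.10, the exporter ATP7A by 0.62 and 0.21, and the chaperone ATOX1 differed by -0.43 in HK1EBV and -0.30 in HK1. Medians of the list were 0.03 in HK1EBV and 0.21 in HK1.

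Glucocorticoid receptor targets were followed because that receptor also induces MT2A. By limma 0 of 7 tested passed (3 at an unadjusted p under 0.05, against 19.5% of all genes). Without the genes of zero residual 2 passed, against 8.21% of all genes. These were DUSP1, a MAP kinase phosphatase, and TSC22D3, a leucine zipper protein. DUSP1 was higher by 1.08 in HK1EBV and 0.97 in HK1, and TSC22D3 by 0.66 and 0.67. The clock gene PER1 was higher by 0.49 and 0.37 and KLF9 by 0.15 and 0.16. Of the 7, 5 were higher in both lines, against 32.1% of all genes, and 2 went opposite ways in the lines, NR3C1 and SGK1. The receptor gene NR3C1 differed by -0.39 in HK1EBV and 0.26 in HK1, and SGK1 by -0.64 and 0.47. Medians were 0.15 in HK1EBV and 0.37 in HK1.

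Neighbours of the metallothionein cluster on chromosome 16 that are not metallothioneins gave medians of -0.05 in HK1EBV and 0.13 in HK1. HERPUD1, a gene of the unfolded protein response beyond NUP93, was higher by 2.20 in HK1EBV and 1.05 in HK1. BBS2 was higher by 0.43 and 0.65, while NUP93, the nearest protein-coding gene after MT1X, differed by -0.45 and -0.34 and NUDT21 by -0.05 and -0.13. By limma 0 of 7 passed (3 at an unadjusted p under 0.05, against 19.5% of all genes). Without the genes of zero residual HERPUD1 and BBS2 passed, against 8.21% of all genes.

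**Figure D4:**
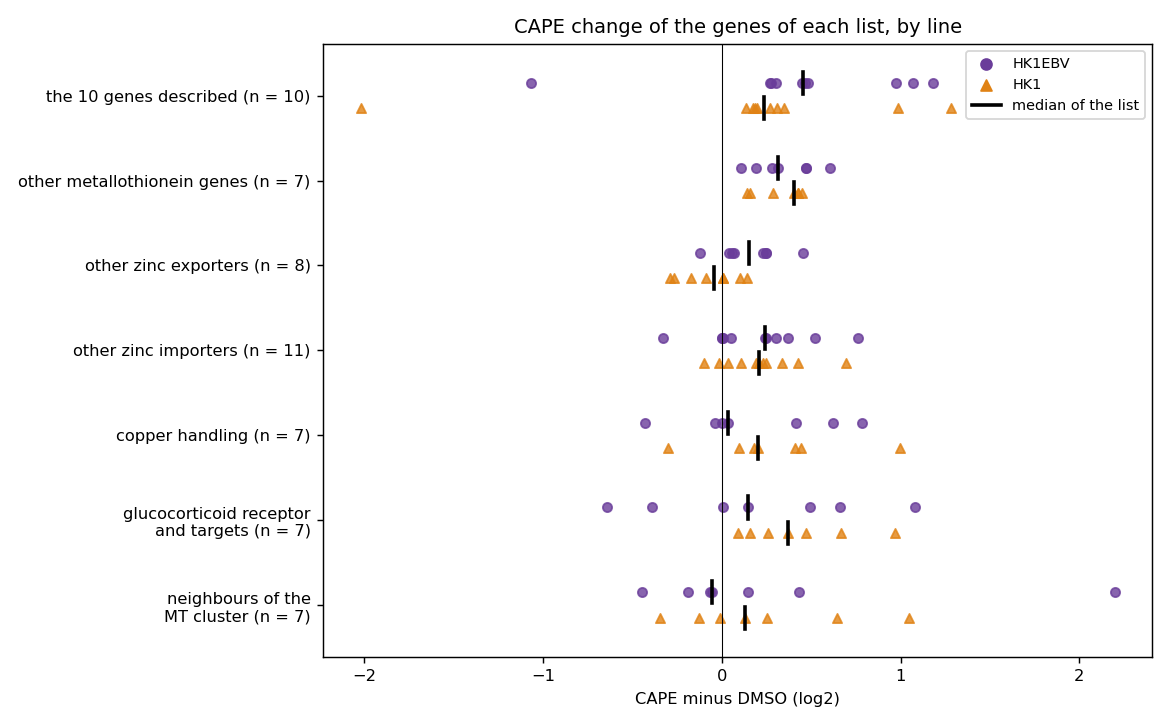
CAPE change (log2) of each gene tested, by list, in HK1EBV (circles) and HK1 (triangles), with black bars for the medians of each list. All 7 other metallothionein genes lie to the right of 0 in both lines, and SLC39A10 is the point farthest to the left, at -2.02 in HK1.

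The genes with the pattern most like the average of the 7 metallothioneins were LAPTM4A, TTC33, PNPLA2, TTLL9 and CSTA. That average changed by 0.60 in HK1EBV and 0.50 in HK1, between MT1F and MT1X on 1 side and the other 5 on the other. The likeness is therefore to the average and not to any 1 of them. TTC33, at 1.47 to 2.22, and TTLL9, at 1.10 to 1.89, lay under the array medians. Likeness was the root mean square difference over the 4 arrays between a gene's values centred on their mean and the average centred profile of the 7 metallothioneins. It was 0.023 to 0.029 log2 units for these 5, against a median of 0.322 over all genes tested. LAPTM4A, a lysosomal membrane protein gene, was higher with CAPE by 0.57 in HK1EBV and 0.47 in HK1, PNPLA2, a triglyceride lipase, by 0.66 and 0.48, and CSTA, a cysteine protease inhibitor of keratinocytes, by 0.63 and 0.45. With 4 arrays many genes can come this close, and the likeness is a description with no test.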

How the data were processed

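RNA of 2 cell lines, each with CAPE or DMSO, was measured on 4 arrays. The deposited values were made by RMA, per the submitters' processing notes, and were taken as log2 because RMA gives that scale. The sources used here name no version, build or later shift. The lowest value of each array lay between -0.19 and -0.07 and the medians between 2.23 and 2.27, lower than RMA usually gives. Dim and near the top of the scale are meant within these values. The platform annotation gave 1 symbol to 18612 of the 25800 probe sets, several to 954 and none to 6234. Sets with 1 symbol were kept, 18583 of them matched a RefSeq gene table by Entrez number, and the brightest set stood for each gene. Genes whose mean lay below 0.997, the level under which 25% of probe sets fell, were not tested. Tests used limma 3.58.1 in R 4.3.3 with an additive model of line and treatment over the 4 arrays (1 residual degree of freedom), two-sided p and Benjamini-Hochberg adjustment over all genes tested. An exact permutation test of 2 against 2 arrays cannot go below 0.333 and was not used. The fit was tested on simulated data with the same noise in every gene and no gene of zero residual. That test therefore does not show how such genes affect the fit.

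The genes, lists and alternatives were chosen with earlier results of these data known, and leaving out genes of zero residual was first tried after seeing them. From each list up to 4 genes with the largest average CAPE change were named, besides others that a count turned on. MT3 and the cell type markers were named outside this rule, after their values were seen. Of the listed genes, FKBP5, COX17, MT1A, MT1CP, MT1L and TP63, among others, were not matched to a probe set of 1 symbol and were not analysed here. Promoters are from RefSeq (GRCh38.p14). Alternatives covered the filter, array scaling, the probe set rule, the variance prior, the block and the thresholds.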

Additional observations from a re-analysis of the deposited data

Results flagged for a closer look

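In 2 genes the difference between HK1EBV and HK1 ran opposite ways with the 2 treatments, and neither case was tested, with 1 array per group. SLC30A1 was 0.17 higher in HK1EBV with CAPE and differed by -0.62 with DMSO, so the CAPE change was 0.79 higher in HK1EBV than in HK1. SLC39A10 was 0.65 higher in HK1EBV with CAPE and differed by -0.30 with DMSO, a gap in the CAPE change of 0.95 that rests on a dim value in HK1 with CAPE.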

How the results depend on the processing

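The directions of all 10 genes for CAPE and for the line difference held under every alternative run (MT1H was too dim for the test at percentile 50), while passing the threshold depended on the setting. Of the 10 genes, 3 passed for CAPE (MT1F, MT1X and SLC39A10) with a robust variance prior, quantile normalization, medians set equal, a filter at percentile 50, no genes of zero residual, or a threshold of 0.1. Their lowest limma adjusted p was 0.000644, 0.00150 and 0.00144, and with no block for cell line the adjusted p of each was 0.437. The count of all genes past the threshold for CAPE, 1 as reported, was 0 without the filter, 894 at percentile 50, 1006 with medians set equal, 755 with quantile normalization, 7 with a trend in the prior, 379 with a robust prior, 1243 without genes of zero residual, 0 with no block and 544 at 0.1. For the line difference, 440 as reported, it was 0, 1296, 1526 and 1324 under the first 4 of these, 959 with a robust prior, 1756 without genes of zero residual, 0 with no block and 1390 at 0.1, and 0 of the 10 genes passed under any. Without the genes of zero residual the prior had 9.89 degrees of freedom, against 3.9 as reported. The cause of the spread in these counts was not tested beyond leaving out those genes. At 1.5-fold in place of 2-fold, 1 gene passed for the line difference with CAPE, 1 with DMSO and 2 for the gap between the lines in the CAPE change, where quantile normalization at 2-fold gave 1. No array could be left out of a test, since each group had 1. The fit as reported pairs the arrays of each line through its block, and the labels give no replicate numbers to pair by. Dim values, those of MT1H and of SLC39A10 in HK1 with CAPE, and MT2A near the top of the scale limit what a change there can show.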
